A study of Homo sapiens with 42 samples.

Results

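Human cells build the small (40S) ribosomal subunit with the help of many proteins that act on its precursor and then leave. The 56 genes described here encode such 40S assembly factors. They were listed by name, though with earlier results of these data known. All 56 were found among the 60606 genes of the deposited gene table. Of those genes, 14426 had a mean of at least 1 transcript per 1000000 (TPM) and were tested, among them all 56 assembly factor genes.

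The early factors gather on the growing precursor rRNA in the nucleolus as the small-subunit processome, a particle of preformed modules (UTP-A, UTP-B, UTP-C, the U3 snoRNA particle and the Mpp10 complex) that cuts away the 5′ external spacer and folds the 18S region. Helicases then take the particle apart, and a smaller set of factors escorts the pre-40S particle to the cytoplasm, where the last cut makes mature 18S rRNA. Many of these factors are essential in dividing cells, and the rate of subunit production is tied to growth.

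The series used AC16, a human cell line labelled as cardiomyocyte-like, and measured the response to loss of RPL3, a protein of the large (60S) subunit, in cells with or without a construct for RPL3L, its paralog of heart and skeletal muscle. PolyA RNA of whole cells was sequenced in 30 libraries, 3 in each of 10 groups, and nuclear RNA in 12 libraries, 2 in each of 6 groups. All groups received 1 ug/ml doxycycline. The controls carried a doxycycline-inducible scrambled hairpin (shScramble). All other groups carried the inducible RPL3 hairpin, either alone (shRPL3), with wild-type RPL3L (RPL3L-WT), or with RPL3L bearing G27D, R161W, T189M, D308N, D308V, R343W or P291L, the last labelled as an inducible variant. The lines were made by lentiviral transduction, with hygromycin selection for the hairpin and sorting in the BV421 channel for RPL3L. No label says that replicates came from separate cultures, so p-values measure only the spread between these libraries. TPM keep no depth, so the depth of the whole-cell libraries is unknown.

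RPL3 was at 1565, 1534 and 1611 TPM in shScramble and at 539, 499.6 and 569.8 TPM in shRPL3. RPL3L was at 121 TPM in shRPL3 replicate 3 and at 0.029 and 0.035 TPM in replicates 1 and 2, so that library went against its label, and counts against shRPL3 are also given without it. In libraries with an RPL3L construct RPL3L ranged from 2145 to 5198 TPM. On the level of 334 pseudogenes, 6 libraries (RPL3L-WT 1 and 2, G27D 3, R161W 1, T189M 1 and 2) stood apart from the other 24, and no label names this second library kind. It moved the assembly factor genes as well: 19 were higher and 26 lower in it (limma, adjusted p under 0.05), against 14.5% and 43.3% of all tested genes, with DDX10 higher by 0.86 and EMG1 lower by 0.76 on the log2 scale. Comparisons that involve mixed groups are therefore also given from a fit with a term for library kind. Of 12 cardiomyocyte markers, 11 had a median under 1 TPM (GATA4 was at 2.25 TPM), with TNNT2 at 0.0638 and MYH7 at 0 TPM, and their summed level was 2.36 to 6.79 TPM. All 10 fibroblast and mesenchyme markers were present, VIM at a median of 2890 TPM. In bulk RNA, fewer cells of a type and less RNA per cell cannot be told apart.

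The promoter sequences of the 4 genes with the largest rise after RPL3 loss, and of TBL3, whose fold change was the lowest, are shown first. Each is the 250 bases upstream of the RefSeq start (GRCh38.p14), 5′ to 3′ on the gene's strand, and capitals mark an E-box (CACGTG) or an ETS motif (CCGGAAG on either strand). They lie at chr14:23469453-23469702 (NGDN), chr1:38012484-38012733 (UTP11), chr2:68157638-68157887 (PNO1), chr16:69132399-69132648 (UTP4) and chr16:1971803-1972052 (TBL3), all on the plus strand.
NGDN: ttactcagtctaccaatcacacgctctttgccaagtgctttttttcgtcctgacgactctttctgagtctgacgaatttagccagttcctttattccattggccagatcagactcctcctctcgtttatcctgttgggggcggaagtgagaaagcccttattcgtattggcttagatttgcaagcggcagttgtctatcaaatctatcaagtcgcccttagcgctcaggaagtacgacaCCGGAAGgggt
UTP11: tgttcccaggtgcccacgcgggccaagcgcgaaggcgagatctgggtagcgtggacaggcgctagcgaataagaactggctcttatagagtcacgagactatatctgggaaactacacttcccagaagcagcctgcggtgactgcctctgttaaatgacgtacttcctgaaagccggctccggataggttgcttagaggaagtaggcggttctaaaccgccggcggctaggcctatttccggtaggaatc
PNO1: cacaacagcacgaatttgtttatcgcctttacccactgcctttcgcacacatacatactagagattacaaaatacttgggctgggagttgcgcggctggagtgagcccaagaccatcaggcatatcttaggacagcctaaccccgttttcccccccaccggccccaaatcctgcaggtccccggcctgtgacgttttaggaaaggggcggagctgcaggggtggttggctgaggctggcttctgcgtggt
UTP4: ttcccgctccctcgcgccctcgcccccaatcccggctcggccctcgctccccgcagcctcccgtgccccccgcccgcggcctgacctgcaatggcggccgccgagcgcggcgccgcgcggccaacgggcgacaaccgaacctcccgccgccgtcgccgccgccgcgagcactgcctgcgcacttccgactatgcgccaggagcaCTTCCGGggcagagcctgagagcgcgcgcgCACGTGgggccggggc
TBL3: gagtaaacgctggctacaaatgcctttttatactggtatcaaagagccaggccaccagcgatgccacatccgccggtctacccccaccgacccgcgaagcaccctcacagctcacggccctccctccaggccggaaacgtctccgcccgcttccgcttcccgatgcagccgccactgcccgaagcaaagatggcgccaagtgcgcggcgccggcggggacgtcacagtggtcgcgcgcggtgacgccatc
NGDN held 1 ETS match close to its start, UTP4 held 1 ETS match and 1 E-box, and UTP11, PNO1 and TBL3 held neither in these windows. RefSeq promoters matched 49 of the 56 genes. In this 250-base window, an ETS match on either strand was found in 17 of the 49 (34.7%), against 8.82% of 27305 promoters and 16.9% of the 10178 promoters of tested genes. The E-box was found in 7 (14.3%, against 6.49% and 8.99%), the letters CCAAT in 22 (44.9%, against 33.0% and 35.5%) and the GC box GGGCGG in 38 (77.6%, against 42.3% and 67.9%). Each motif was searched on both strands and on its own, so matches of different motifs may overlap, and a match is a run of letters, not a measured site. A link between any motif and the change in level was not tested.

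The first comparison, shRPL3 against shScramble, addressed what lowering RPL3 alone did to these genes. Most rose: 42 of the 56 were higher and 0 were lower (limma on log2(TPM + 1), Benjamini-Hochberg adjusted p under 0.05), while 17.2% of all tested genes were higher and 18% lower. The median log2 fold change of the 56 was 0.47, against -0.01 over all tested genes, and 54 of 56 values lay above 0. For 51 genes every shRPL3 library was above every shScramble library, and for 0 genes the reverse, against 26.8% and 27.7% of all genes. The summed level of the set went from 2432 to 2505 TPM in shScramble to 3491 to 3561 TPM in shRPL3. With the library kind term, which narrows the fitted spread, 51 rose and 0 fell (24.4% and 24.5% of all genes). Without shRPL3 replicate 3, 39 rose and 0 fell. Here and below, counts with a library left out are given without the share of all genes. They show only how far a count moved.

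**Figure D1:**
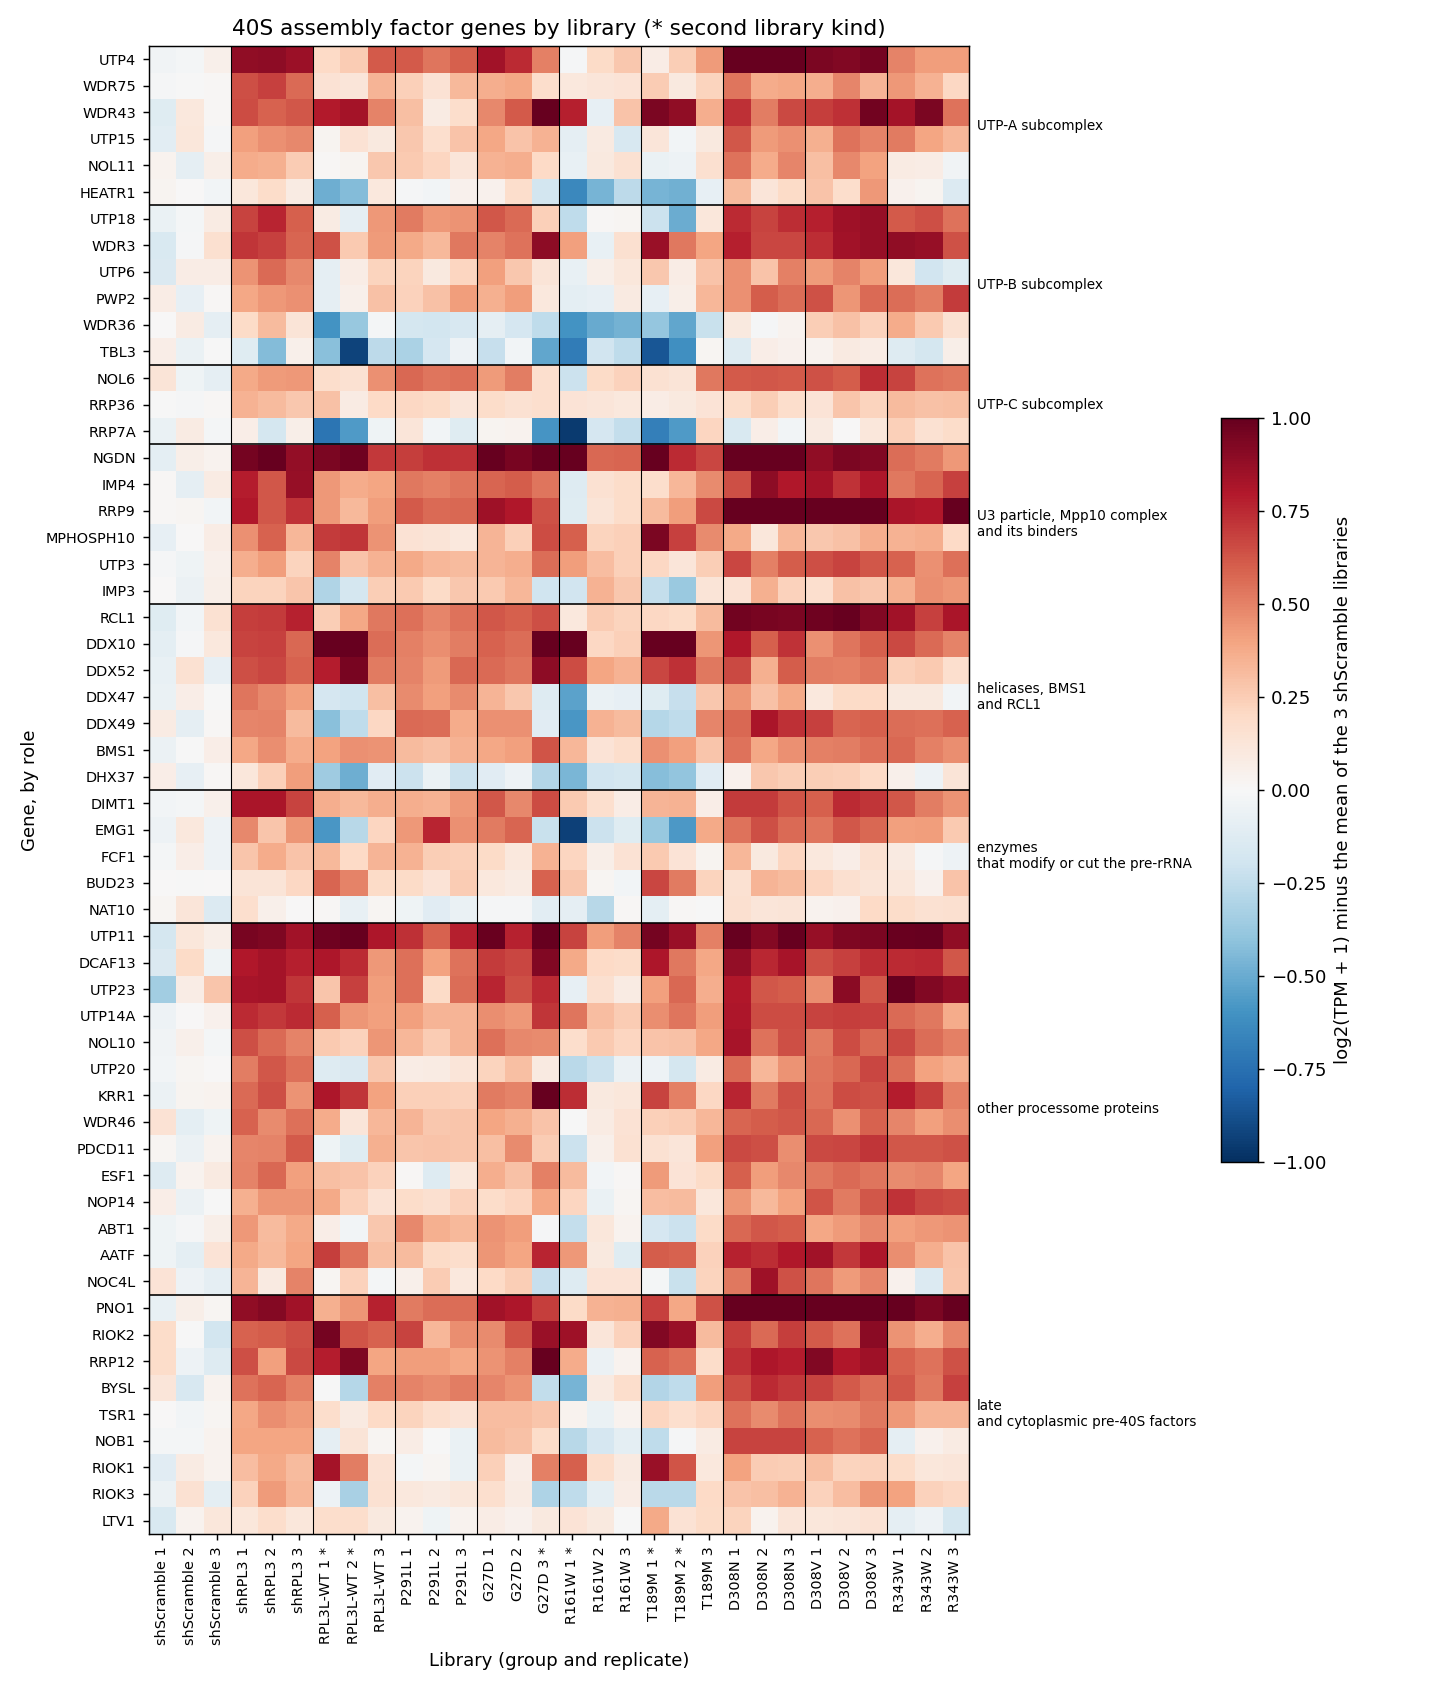
Level of each of the 56 assembly factor genes (vertical axis, by role) in each of the 30 whole-cell libraries (horizontal axis; an asterisk marks the second library kind), as log2(TPM + 1) minus the mean of the 3 shScramble libraries, with the colour scale ending at -1 and 1. The shRPL3, D308N and D308V columns are red for most genes, and the 3 R161W columns are paler, with a median of 0.01 to 0.13.

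Among the UTP-A proteins, which bind the 5′ spacer first and are linked to rRNA transcription, 5 of 6 genes rose. UTP4, a WD-repeat protein of this module (ENSG00000141076.17, chromosome 16, 69131291 to 69231130), was at 85.1, 85.9 and 90.6 TPM in shScramble and at 162, 163 and 159 TPM in shRPL3. The libraries of the groups were far apart, and the log2 fold change was 0.88 (SE 0.097, adjusted p = 2.11e-07, limma). HEATR1, the large repeat protein of the module, did not pass (0.13, SE 0.13).

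In UTP-B, the scaffold that joins the spacer to the U3 particle, 4 of 6 genes rose. UTP18 was at 44.7, 46.2 and 49.6 TPM in shScramble and at 75.5, 80.2 and 71.5 TPM in shRPL3, without overlap (0.68, SE 0.126, adjusted p = 1.63e-04, limma). TBL3, a WD-repeat subunit of the same complex, was at 31.4, 28.6 and 29.9 TPM in shScramble and at 27.5, 21.95 and 31.0 TPM in shRPL3. Its groups overlapped, and its log2 fold change of -0.17 (95% interval -0.55 to 0.22) was the lowest of the 56. WDR36 was at 0.21 (adjusted p = 0.111, limma).

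UTP-C was the smallest module, with 2 of 3 genes higher. NOL6 was at 35.5, 31.5 and 30.5 TPM in shScramble and at 42.6, 43.9 and 44.25 TPM in shRPL3 (0.41, SE 0.112, adjusted p = 5.75e-03, limma). RRP7A did not pass, at -0.02 (95% interval -0.455 to 0.415), and its groups overlapped.

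Of the U3 particle, the Mpp10 complex and their binders, 5 of 6 genes rose. NGDN, a Sas10-family protein that joins the early particle (ENSG00000129460.15, chromosome 14, 23469688 to 23509862), had the largest rise of the 56. It was at 32.0, 35.9 and 35.2 TPM in shScramble and at 67.7, 70.4 and 63.8 TPM in shRPL3 (0.95, SE 0.106, adjusted p = 2.55e-07, limma). RRP9, the U3-specific protein, went from 21.1, 21.2 and 20.5 TPM to 37.3, 32.85 and 35.2 TPM. Both genes showed no overlap between the groups. IMP3, an Mpp10 partner, was at 0.24 and did not pass.

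Among the helicases, the GTPase BMS1 and its partner RCL1, 5 of 7 genes rose. RCL1 was at 15.2, 16.2 and 18.6 TPM in shScramble and at 27.5, 27.6 and 29.01 TPM in shRPL3 (0.72, SE 0.071, adjusted p = 4.12e-08, limma). DHX37, which releases U3 from the particle, was at 0.26 (adjusted p = 0.063, limma) and DDX49 at 0.43 (adjusted p = 0.114, limma). The value of BMS1 is uncertain: 20 named pseudogenes summed to 40.1 TPM, 166% of the 24.1 TPM of the gene itself.

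The enzymes that modify or cut the precursor responded least evenly, with 2 of 5 higher. DIMT1, which dimethylates adenosines of 18S rRNA, rose from 35.7, 35.8 and 37.6 TPM to 64.8, 64.65 and 58.6 TPM (0.77, SE 0.073, adjusted p = 2.17e-08, limma). NAT10, the 18S acetyltransferase, was at 0.07 (SE 0.072), BUD23, a guanosine methyltransferase, at 0.16 (SE 0.121) and EMG1, a pseudouridine methyltransferase, at 0.40 (SE 0.228), and none of these 3 passed. EMG1 and BUD23 passed in the fit with the kind term (adjusted p = 3.34e-04 and 0.0307, limma), and NAT10 did not.

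Of the 14 other processome proteins 13 rose. UTP11, a processome component (ENSG00000183520.11, chromosome 1, 38009258 to 38024824), was at 61.2, 75.0 and 71.9 TPM in shScramble and at 134, 133 and 124.5 TPM in shRPL3 (0.91, SE 0.124, adjusted p = 4.22e-06, limma). DCAF13, the Sof1 homolog, rose by 0.80 (SE 0.104) and UTP20, a long helical-repeat protein, by 0.56 (SE 0.095). NOC4L, the partner of NOP14, was at 0.31 (adjusted p = 0.0854, limma), and NOP14 itself rose.

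Among the 9 late and cytoplasmic pre-40S factors 6 rose. PNO1, the KH-domain protein that holds the 3′ end of 18S (ENSG00000115946.7, chromosome 2, 68157844 to 68176238), was at 27.9, 30.75 and 29.8 TPM in shScramble and at 55.2, 56.6 and 53.65 TPM in shRPL3. Its groups did not overlap (0.88, SE 0.084, adjusted p = 2.29e-08, limma). NOB1, the endonuclease that PNO1 holds back until the last cut, rose by 0.40 (SE 0.072), while LTV1, RIOK1 and RIOK3 did not pass.

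**Figure D2:**
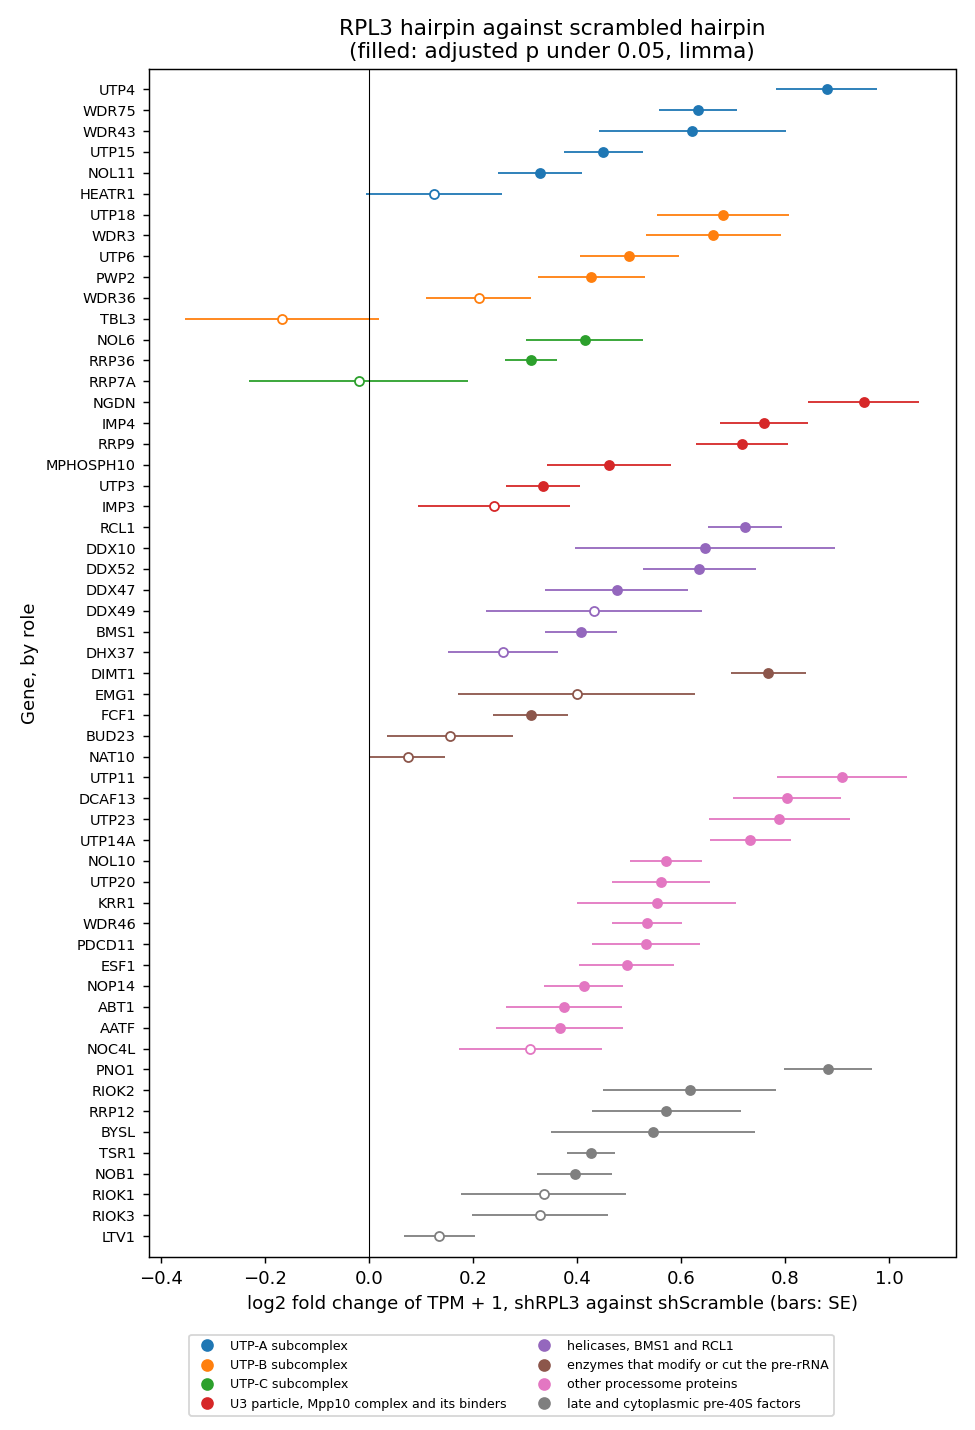
Log2 fold change of TPM + 1, shRPL3 against shScramble (horizontal axis), for each of the 56 genes (vertical axis, coloured by role), with bars of 1 standard error of the limma fit and filled points for an adjusted p under 0.05. The 42 filled points lie to the right of 0, and TBL3 and RRP7A are the 2 points to its left.

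Other genes of the pathway were counted in the same comparison. Of 23 further genes of 40S assembly, 10 rose, led by CMSS1 (0.92), NOL12 (0.70) and NOP56 (0.66), the last a core protein of the U3 particle and other box C/D snoRNPs. 1 gene fell, TRMT112 (-0.31), the cofactor of BUD23. Their median was 0.24. Of 33 genes for 40S ribosomal proteins, 15 rose and 0 fell, with a median of 0.35, RPS13 (0.62) and RPS27A (0.62) among those that rose. Genes for ribosomal proteins share sequence with many pseudogenes, so their TPM are uncertain.

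All RPL3L lines were set against the same shRPL3 libraries, and those with RPL3L-WT or shScramble share those, so these comparisons are not independent of each other. TPM are shares of a fixed total, and the median of all tested genes lay below 0 in each RPL3L line against shRPL3, from -0.05 in D308N to -0.19 in RPL3L-WT. Median-ratio scaling, which brings this median to between 0.00 and 0.01, was used as an alternative, and the median of all genes is given beside that of the set.

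With wild-type RPL3L the set stayed above shScramble. Against shScramble, 32 of 56 genes were higher and 3 lower, among them WDR36 (-0.33), TBL3 (-0.53) and DHX37 (-0.32), against 12.1% and 34.6% of all genes (limma). With the kind term 39 were higher and 0 lower (15.6% and 29.1%), and these 3 genes no longer passed. Median-ratio scaling also left none of the set lower, with 44 higher (21.5% and 22.0% of all genes). NGDN was at 66.65 and 68.5 TPM in the 2 RPL3L-WT libraries of the second kind and at 56.55 TPM in the third, all above the shScramble libraries. UTP11 (137, 143 and 122 TPM) was likewise above them in all 3.

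Against shRPL3, 0 genes of the set were higher and 26 lower in RPL3L-WT, with a median of -0.27, but 30.2% of all genes were lower there too (5.77% higher), with a median of -0.19. With the kind term, 0 were higher and 25 lower (6.27% and 20.1% of all genes). With median-ratio scaling the count fell to 2 higher and 9 lower (12.5% and 11.8%), and the median of the set to -0.05. The count of the main fit also moved with single libraries: without RPL3L-WT replicate 2, 17 were lower. Without RPL3L-WT replicate 3, 33 passed, both directions joined. Without shRPL3 replicate 3, 24 were lower. UTP20 (-0.56), DHX37 (-0.58) and WDR36 (-0.54) fell, and passed too with the kind term and scaling combined. EMG1 (-0.61) and DDX49 (-0.59) passed without the kind term and not with it (adjusted p = 0.43 and 0.299, limma), and the sign of EMG1 turned to 0.01 with the kind term and scaling combined. Of the 23 further assembly genes 10 fell, and of the 33 ribosomal protein genes 21.

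**Figure D3:**
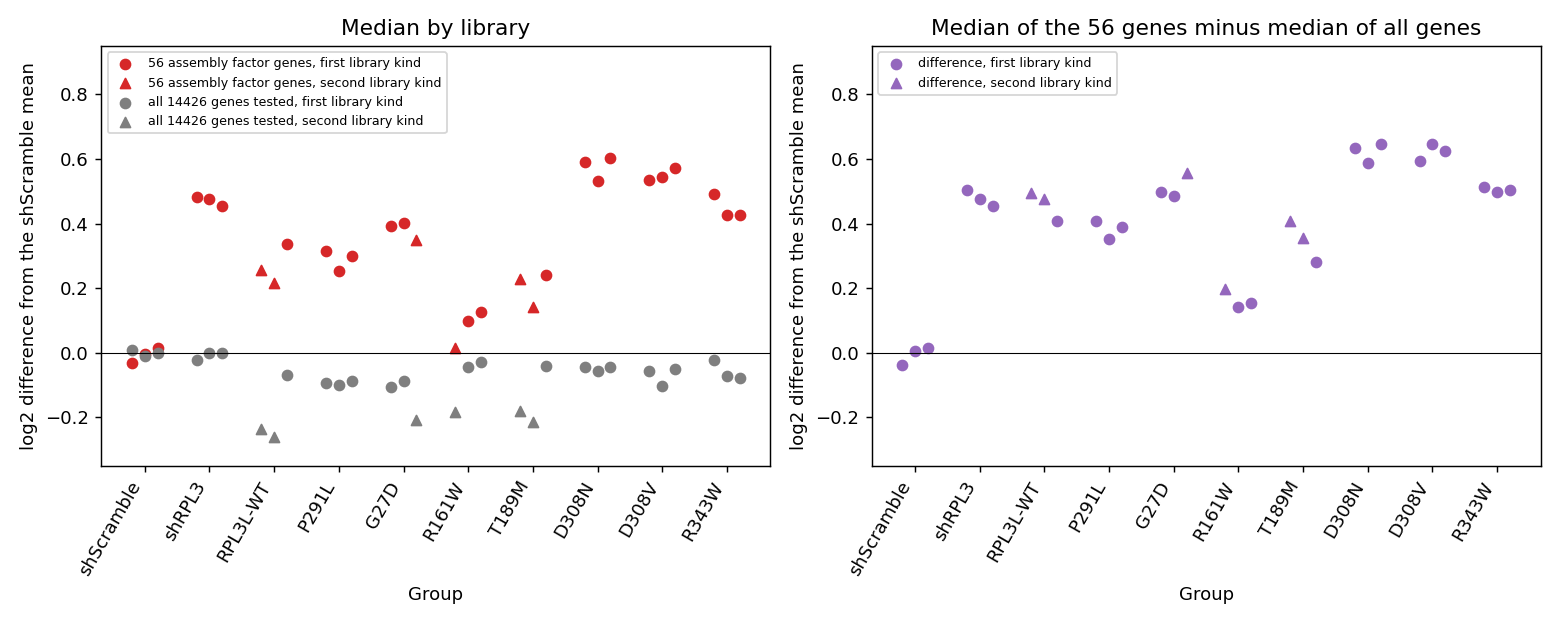
Left: median over the 56 assembly factor genes (red) and over all 14426 tested genes (grey) of the log2 difference from the shScramble mean, for each library (points) in each group (horizontal axis), with triangles for the second library kind. Right: the difference of these medians, which was 0.14 to 0.20 in R161W, 0.45 to 0.50 in shRPL3 and 0.59 to 0.65 in D308N and D308V.

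R161W was the group with the lowest levels of the set among the lines with the RPL3 hairpin. In this line RPL3 itself was at 1059, 1686 and 1570 TPM, against 1565, 1534 and 1611 TPM in shScramble. Against shRPL3, 37 of 56 genes fell and 0 rose, with a median of -0.41, against 16.9% lower and 8.36% higher of all genes (median -0.08). For 38 genes every R161W library was below every shRPL3 library, and for 0 above, against 27.1% and 12.5% of all genes. With the kind term 50 fell and 0 rose (21.8% and 14.3%), and with median-ratio scaling 29 and 0 (12.6% and 12.3%). On libraries of the first kind alone 47 fell and 0 rose, with no share of all genes given for that fit. Leaving out single libraries gave 31 to 36, with 35 without shRPL3 replicate 3.

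The 5 largest falls in R161W were those of EMG1, UTP18, UTP20, UTP23 and WDR36. UTP18 was at 39.0, 47.1 and 47.4 TPM, close to its shScramble libraries and below every shRPL3 library (-0.76, SE 0.126, adjusted p = 1.05e-04, limma). UTP20 was at 13.6, 14.2 and 15.9 TPM, under all 3 shScramble libraries (16.3, 16.9 and 16.7 TPM) as well as all 3 of shRPL3 (24.1, 26.0 and 24.8 TPM), though the difference from shScramble did not pass (adjusted p = 0.174, limma). EMG1 fell most (-0.82, SE 0.228, adjusted p = 0.0102, limma). Its lowest library was R161W replicate 1, of the second kind, at 19.9 TPM against 33.4 and 35.7 TPM, and with the kind term the value was -0.57. UTP23, a PIN-domain protein, fell by 0.74 (SE 0.136), and WDR36 by 0.73 (SE 0.101). UTP4 was at 86.7, 99.5 and 105.5 TPM and RRP9 at 19.1, 23.0 and 23.9 TPM, both below all shRPL3 libraries. The smallest differences were those of UTP3 (-0.01), RIOK1 (-0.05) and LTV1 (-0.06), which did not pass and lay above 0 with median-ratio scaling. RIOK1 passed with the kind term (-0.21). Beside the set, 13 of the 23 further assembly genes fell, led by CMSS1 (-0.91), and 21 of the 33 ribosomal protein genes, with 0 rising in either list.

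Against shScramble, R161W had 9 genes of the set higher and 2 lower, against 7.54% and 16.3% of all genes, with a median of 0.08. The kind term gave 16 higher and 3 lower (14.0% and 20.4%). NGDN (0.74, SE 0.106), UTP11 (0.53, SE 0.124) and DDX52, a helicase (0.46, SE 0.109), stayed higher, NGDN at 72.6, 51.5 and 51.9 TPM. WDR36 (-0.52, SE 0.101) and HEATR1 (-0.46, SE 0.13) were lower. WDR36 was at 17.4, 18.5 and 18.9 TPM in R161W against 26.8, 28.4 and 25.1 TPM in shScramble. Without shScramble replicate 1 the counts were 5 higher and 2 lower.

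The R161W line also differed from RPL3L-WT. There 10 genes fell and 0 rose, against 4.07% and 12.6% of all genes, and the median was -0.19 while that of all genes was 0.10. Under the kind term 27 fell and 0 rose (8.87% and 16.1%), and with median-ratio scaling 30 and 0 (8.69% and 8.49%). RRP12, an export factor of pre-40S particles (-0.59, SE 0.143), UTP11 (-0.41), DCAF13 (-0.41), UTP23 (-0.41) and IMP4 (-0.33) led. The count was 4 without RPL3L-WT replicate 2 or without R161W replicate 2, 6 without R161W replicate 3, and 19 without R161W replicate 1. The targeted gene moved with this line: RPL3 was at 1059, 1686 and 1570.0 TPM in R161W, a log2 difference of 1.40 from shRPL3 (SE 0.185, adjusted p = 7.5e-06, limma). R161W replicate 3 lay within the range of the shScramble libraries (1534 to 1611 TPM) and replicate 2 above it. RPL3 was also above every shRPL3 library in P291L (657.9 to 685 TPM), D308N (680.1 to 714.4 TPM) and R343W (724 to 737.2 TPM). It was at 568 to 570.8 TPM in D308V. In RPL3L-WT it was at 445.2 and 439.3 TPM in the second-kind libraries and at 673.5 TPM in the first-kind library. In G27D it was at 448.8 TPM in the second-kind library and at 723.1 and 726.7 TPM in the first-kind libraries. These first-kind values also lay above every shRPL3 library, all of the first kind. The R161W library at 1059 TPM was of the second kind, so RPL3 levels of different kinds are not directly comparable. The part of RPL3 in the lower level of the set in R161W was not tested.

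**Figure D4:**
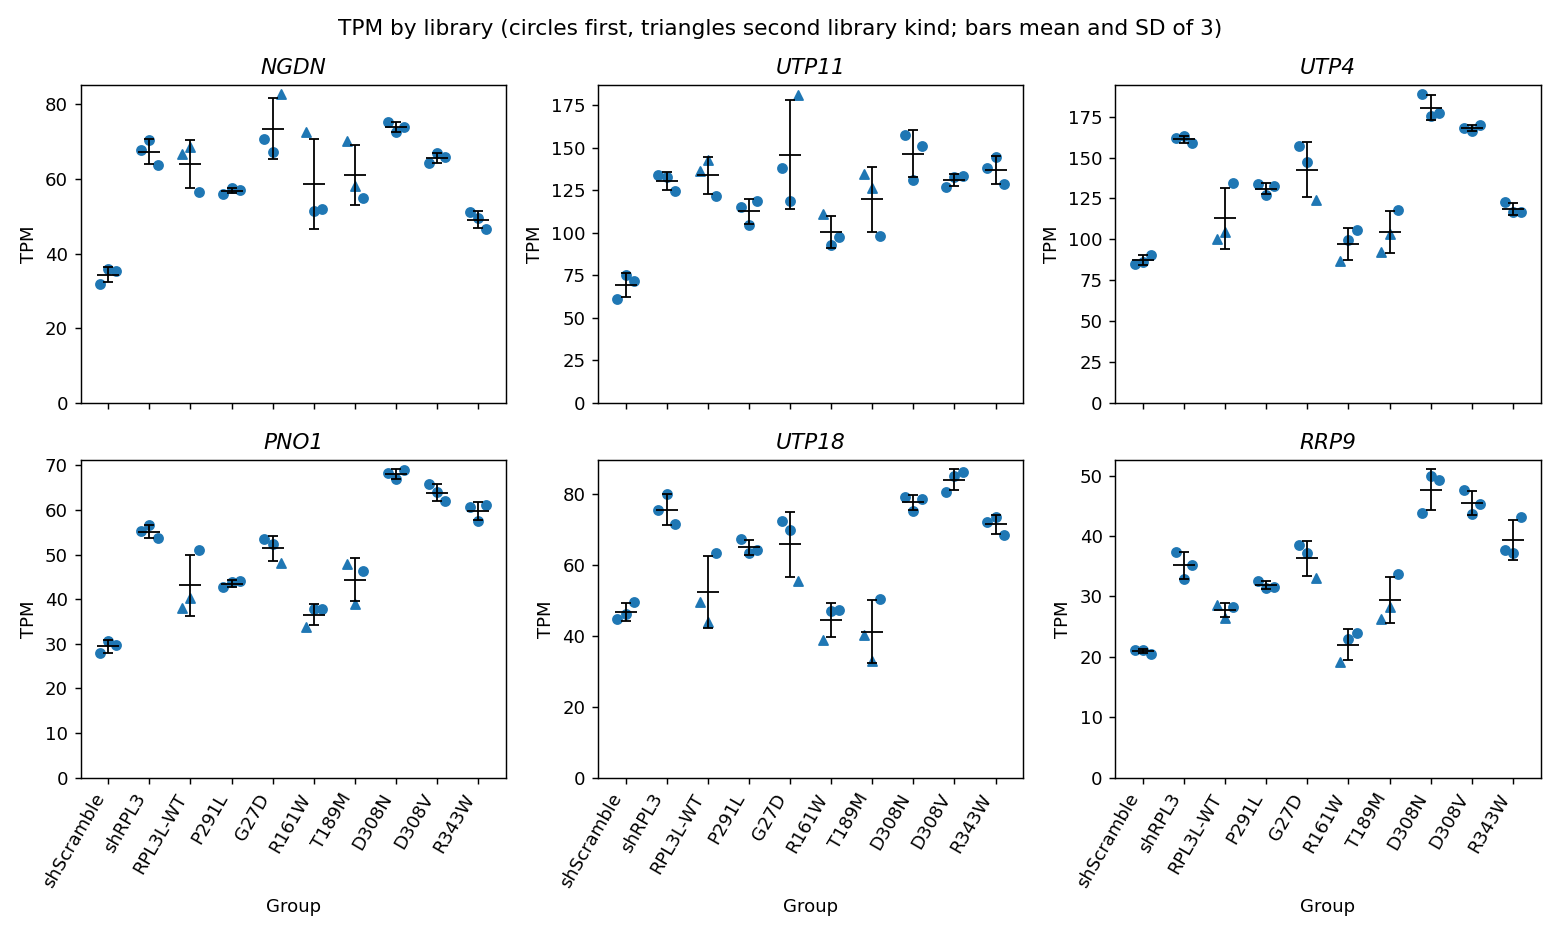
TPM of NGDN, UTP11, UTP4, PNO1, UTP18 and RRP9 (vertical axes, from 0) in every whole-cell library by group (horizontal axis), with circles and triangles for the first and second library kind and bars for the mean and SD of 3 libraries. UTP18 and RRP9 in R161W lie near the shScramble level, and RRP9 in D308N and D308V lies above all shRPL3 libraries.

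The set was also lower in T189M. Against shRPL3, 1 gene was higher and 30 were lower, against 8.42% and 25.5% of all genes, and the median was -0.28 while that of all genes was -0.14. The kind term gave 0 and 31 (10.8% and 18.6%). UTP18 was at 40.3, 32.9 and 50.6 TPM, below every shRPL3 library (-0.88, SE 0.126, adjusted p = 2.1e-05, limma). Its lower values came from T189M 1 and 2, of the second library kind, in which UTP18 was at -0.38 on the log2 scale. UTP4 (-0.63), UTP20 (-0.61) and WDR36 (-0.59) also fell and passed with the kind term. BUD23, the gene that was higher (0.32, adjusted p = 0.0479, limma), and BYSL, the bystin of the late nuclear particle (-0.59), did not pass with it. Median-ratio scaling gave 2 and 17 (14.7% and 15.3%). Without T189M replicate 2 the counts were 0 and 18, and without shRPL3 replicate 3 they were 0 and 25. RPL3 was at 779.7, 801.8 and 1246 TPM here, higher than in shRPL3 by 0.78 (adjusted p = 2.72e-03, limma), and its part was not tested. The summed fibroblast and mesenchyme markers were also higher, at 7070 to 7410 TPM against 6350 to 6690 TPM, which was not tested either. Of the 33 ribosomal protein genes 29 fell, and of the 23 further assembly genes 11. Against RPL3L-WT, 0 genes of the set passed in limma in either direction (1.39% higher and 0.409% lower of all genes), 3 had an unadjusted p under 0.05, and the kind term gave 0 higher and 3 lower (7.51% and 3.08%). Without T189M replicate 3, 1 gene was lower.

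D308N and D308V, changes of the same residue, had the highest medians of the set. Against shRPL3, D308N had 6 genes higher and 0 lower (5.73% and 12.4% of all genes), and D308V had 4 higher and 1 lower (5.19% and 11.1%). Medians were 0.06 and 0.05, with all genes at -0.05 and -0.07. The kind term raised these counts to 13 and 2 in D308N (11.2% and 22.2%) and to 9 and 3 in D308V (9.67% and 22.4%). Median-ratio scaling gave 12 and 0 in D308N (9.13% and 10.0%) and 8 and 0 in D308V (8.33% and 7.89%). Both together gave 20 and 0, and 20 and 1. No share of all genes is given for that combined fit, so these counts are not read as an excess. Single libraries moved the counts of the main fit: D308N without replicate 1 gave 3 higher and 1 lower. For D308V, 3 were higher without shRPL3 replicate 1 or D308V replicate 3, 2 without shRPL3 replicate 2 or D308V replicate 1, and none was lower in those 4. Without shRPL3 replicate 3 the counts were 5 and 0 in D308N and 4 and 1 in D308V.

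RRP9, AATF, UTP3 and RCL1 rose in both lines. RRP9 was at 43.9, 50.0 and 49.2 TPM in D308N and at 47.6, 43.6 and 45.3 TPM in D308V, all above the highest shRPL3 library (0.43, adjusted p = 1.22e-03, and 0.36, adjusted p = 5.8e-03, limma). AATF, which forms a complex with NGDN and NOL10, was at 67.25, 65.7 and 68.5 TPM in D308N and at 70.5, 64.5 and 69.3 TPM in D308V. The shRPL3 libraries were at 51.1, 49.0 and 51.7 TPM, so the groups did not overlap (0.40 and 0.42). UTP3 was at 0.26 and 0.31, and RCL1 at 0.23 and 0.24. NOB1 was at 120.0, 119.8 and 120.0 TPM in D308N against 98.6, 98.3 and 98.4 TPM in shRPL3 (0.28, SE 0.072), and PNO1 rose by 0.30 in D308N. WDR75 of UTP-A fell in D308V (-0.24) but did not pass with median-ratio scaling (adjusted p = 0.117, limma). The summed fibroblast and mesenchyme markers were at 5030 to 5620 TPM in these lines, at 6350 to 6690 TPM in shRPL3 and at 6490 to 6910 TPM in RPL3L-WT, and the part of this in the results against either was not tested.

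Against RPL3L-WT the difference was broad. In D308N 32 genes were higher and 1 lower (23.7% and 9.48% of all genes), with a median of 0.34 against 0.13 over all genes. In D308V 33 were higher and 1 lower (21.6% and 9.03%), with a median of 0.32 against 0.11. The kind term gave 34 and 0 for D308N (17.5% and 12.8%) and 33 and 0 for D308V (16.2% and 12.7%). MPHOSPH10, the gene that was lower in both, no longer passed with that term. With median-ratio scaling it still passed in D308N (-0.50, adjusted p = 0.0161, limma). Counts with that scaling are not given for these comparisons, and how much of the breadth goes with the shift of all genes was not tested. RRP9 (0.76 and 0.69), DDX49 (0.86 and 0.77) and EMG1 (0.80 and 0.79) were among the leaders. Under the kind term DDX49 was at 0.40 and 0.31, and EMG1 at 0.29 in both. UTP4 rose by 0.68 in D308N and UTP18 by 0.69 in D308V.

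Between the 2 lines, 0 genes of the set passed in limma (0.776% of all genes were higher in D308N and 0.866% lower), and 2 had an unadjusted p under 0.05. The largest differences were WDR36 (-0.22, 95% interval -0.43 to -0.01) and DDX47 (0.21, interval -0.07 to 0.49). With the kind term 1 was higher, DDX47, and 1 lower, NOP14 (-0.20), against 4.07% and 4.19% of all genes.

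Against shRPL3, R343W had 1 gene higher and 12 lower (7.22% and 12.4% of all genes) and the median was -0.04. The kind term gave 5 and 13 (12.7% and 22.8%), and median-ratio scaling gave 6 and 6 (10.4% and 10.1%) and turned the median to 0.03. With that scaling the shares called in the set were near those of all genes in both directions. UTP6 of UTP-B was at 73.0, 59.1 and 62.0 TPM against 92.7, 100.7 and 94.8 TPM in shRPL3 (-0.57, SE 0.095, adjusted p = 1.15e-04, limma). NGDN was at 51.1, 49.6 and 46.6 TPM, under the shRPL3 libraries and above those of shScramble (-0.45, SE 0.106). UTP4 (-0.44), DDX47 (-0.42) and DDX52 (-0.41) fell as well. With median-ratio scaling NGDN (adjusted p = 0.0612, limma) and DDX52 (adjusted p = 0.0942, limma) did not pass. NOP14, a core processome protein, was the gene that rose, at 52.6, 50.5 and 49.9 TPM against 40.5, 43.2 and 43.1 TPM (0.27, SE 0.076, adjusted p = 0.0147, limma). Counts were 0 and 8 without shRPL3 replicate 1, 2 and 7 without shRPL3 replicate 2, 1 and 10 without shRPL3 replicate 3, and 1 and 7 without R343W replicate 3. The summed fibroblast and mesenchyme markers were at 5300 to 5520 TPM in R343W, 6350 to 6690 TPM in shRPL3 and 6490 to 6910 TPM in RPL3L-WT, and their part was not tested. Against RPL3L-WT, 23 were higher and 5 lower (24.5% and 9.19%), 24 and 6 with the kind term (18.8% and 12.6%) and 12 and 8 with median-ratio scaling (15.7% and 16.1%). DDX49 (0.72), WDR36 (0.60) and PDCD11, the Rrp5 homolog (0.56), were among the higher genes that held with the kind term, while DDX52 (-0.53), FCF1, the processome nuclease (-0.28), and LTV1 (-0.26) were lower in both fits. Without RPL3L-WT replicate 2 the counts were 13 and 3.

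P291L and G27D differed from RPL3L-WT in few genes of the set. In P291L 0 genes were higher and 16 lower than in shRPL3 (4.67% and 15.0% of all genes), with a median of -0.21 against -0.10. The kind term gave 1 and 30 (8.52% and 27.3%), and median-ratio scaling 1 and 7 (8.85% and 7.99%). ESF1, a processome protein (-0.50), UTP20 (-0.47), DHX37 (-0.42), WDR75 (-0.40) and NOB1 (-0.40) fell and passed in all 3 of those fits and in the combined one. The count was 10 without P291L replicate 2 and 14 without shRPL3 replicate 3. Against RPL3L-WT, 0 genes were higher and 1 lower, MPHOSPH10 (1.66% and 1.09%), and 0 passed with the kind term (0.825% and 1.16%). Without RPL3L-WT replicate 3, which left 2 RPL3L-WT libraries, both of the second kind, 16 were higher and 11 lower. All P291L libraries were of the first kind, so group and library kind cannot be told apart in that fit. No share of all genes is given for it, so these counts are not read as an excess. Without any other single library 0 passed, and the cause was not tested. The summed fibroblast and mesenchyme markers were at 6910 to 6980 TPM in P291L, above the 6350 to 6690 TPM of shRPL3, and their part was not tested.

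In G27D, 0 genes were higher and 5 lower than in shRPL3 (2.41% and 15.0% of all genes), a smaller share than among all genes. Under the kind term these were 0 and 12 (5.02% and 20.5%). The 5 were DHX37 (-0.41), WDR36 (-0.38), UTP20 (-0.36), WDR75 (-0.32) and RRP36 (-0.14), and RRP36 changed sign (0.02) with median-ratio scaling, which gave 0 higher and 2 lower (5.34% and 5.57%), DHX37 and UTP20. The median was -0.11 and turned to 0.06 with that scaling. The count was 2 without shRPL3 replicate 2 or G27D replicate 3, and 3 without shRPL3 replicate 3. The summed fibroblast and mesenchyme markers were at 5120 to 5510 TPM in G27D, below those of shRPL3 (6350 to 6690 TPM) and RPL3L-WT (6490 to 6910 TPM), and their part was not tested. Against RPL3L-WT, RRP9 was the 1 gene that rose (0.37, SE 0.088, adjusted p = 0.0188, limma) and 0 fell (1.55% and 1.77%), with 9 and 0 under the kind term (4.31% and 6.02%). It gave 0 without RPL3L-WT replicate 1, G27D replicate 1 or G27D replicate 2, 6 without G27D replicate 3 and 12 without RPL3L-WT replicate 3.

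Nuclear RNA gave the only reading of the precursor these proteins act on, in 6 of the groups with 2 libraries each and 8094182 to 14698375 counts in rRNA regions. Counts in the 5′ external spacer, the stretch that the processome removes, were 6.11 and 6.32 per 100 counts in 18S in RPL3L-WT and 6.31 and 7.53 in T189M. They were 8.62 and 8.36 in shRPL3, 9.35 and 8.51 in R161W, 11.4 and 11.8 in G27D, and 13.5 and 11.3 in D308N. RPL3L-WT and T189M were thus below shRPL3, R161W overlapped shRPL3, and G27D and D308N were above it. Counts in the first internal spacer followed a like order, from 4.05 and 3.48 in RPL3L-WT to 8.3 and 7.5 in D308N, with shRPL3 at 6.04 and 5.77. With 2 libraries a group no test was made.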

How the data were processed

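PolyA RNA of 30 whole-cell libraries and nuclear RNA of 12 libraries were analysed. The authors deposited TPM per gene (60612 entries, 6 of them construct sequences, each library summing to 1000000) and whole-number counts per rRNA region. Tools named in the submitters' processing notes are kallisto, bedtools, Bowtie and bcl2fastq 2.19. Which tool made which table, and the index and build, are not stated there or in the labels. Columns were matched to labels, leaving 0 unmatched.

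Genes with a mean of at least 1 TPM were tested on log2(TPM + 1), which understates changes of low genes, with limma 3.58.1 in R 4.3.3 (trend and robust options, 1 fit over 10 groups, two-sided, Benjamini-Hochberg adjustment over 14426 genes in each of 19 comparisons). The labels name no batch, and library kind entered as a term in an alternative fit. Other alternatives were a pseudocount of 0.5, no filter, median-ratio scaling, a replicate block, first-kind libraries only, and each library left out. The combination of kind term and scaling was added after seeing the data. The fit was tested on simulated data.

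Named genes were the largest changes of each role group after RPL3 loss, and in each comparison up to 5 each way among those past the threshold without overlap between groups, plus those in the minority direction where there were 5 or fewer. Genes singled out as not passing, the smallest differences in R161W, and genes followed across groups were chosen after their values were seen. The 56 genes, the roles and the other lists were chosen with earlier results of these data known. Same-numbered libraries deviated together (all 3 correlations over 0.1) in 1 of 19 comparisons, T189M against RPL3L-WT (0.191, 0.194 and 0.505), where equal numbers are also of equal library kind. Gene positions came from GENCODE 29 (GRCh38) and promoters from RefSeq (GRCh38.p14). Python 3.11.15 was used for joins and figures.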

Additional observations from a re-analysis of the deposited data

How the results depend on the processing

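A pseudocount of 0.5 left every count of called assembly factor genes within 1.5 times its value, and so did the replicate block, which pairs libraries by number (41 for shRPL3 against shScramble, 37 for R161W against shRPL3, 0 for T189M against RPL3L-WT). Of 133 counts under alternatives other than leaving out a library, 83 stayed within 1.5 times. The rise after RPL3 loss (42 genes) and the fall in R161W against shRPL3 (37) did so throughout. Where other counts moved, the cause was not tested. Counts in this section join both directions and stand without the share of all genes, which also moved between fits. For RPL3L-WT against shRPL3, 30.2% of all genes were lower in the main fit and 11.8% with median-ratio scaling. The counts below therefore show how far each one moved, not how the set compares with all genes.

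With the library kind term, counts were 19 for R161W against shScramble, 31, 12, 15 and 12 for P291L, G27D, D308N and D308V against shRPL3, 0, 9, 27 and 3 for P291L, G27D, R161W and T189M against RPL3L-WT, and 2 between D308N and D308V. On first-kind libraries only, they were 19 for R161W against shScramble, 15, 32, 9, 16, 15 and 20 for RPL3L-WT, P291L, G27D, D308N, D308V and R343W against shRPL3, 0, 3, 16 and 18 for P291L, G27D, R161W and R343W against RPL3L-WT, and 5 between D308N and D308V. Median-ratio scaling gave 16 for R161W against shScramble, 11, 8, 2, 19, 12, 8 and 12 for RPL3L-WT, P291L, G27D, T189M, D308N, D308V and R343W against shRPL3, and 3, 2, 30, 1 and 20 for P291L, G27D, R161W, T189M and R343W against RPL3L-WT. Kind term and scaling together gave 49 and 27 for RPL3L-WT and R161W against shScramble, 11, 4, 20, 21 and 23 for RPL3L-WT, G27D, D308N, D308V and R343W against shRPL3, 0, 9, 41 and 9 for P291L, G27D, R161W and T189M against RPL3L-WT, and 3 between D308N and D308V. Without the filter, D308V against shRPL3 had 2, P291L against RPL3L-WT 0 and R161W against RPL3L-WT 5.

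The median of the set changed sign in G27D against shRPL3 (0.055 with scaling, 0.0253 with both), R343W against shRPL3 (0.0297 with either) and P291L against RPL3L-WT (-0.00341 with the kind term, -0.0766 with scaling, -0.0284 on first-kind libraries). EMG1 in RPL3L-WT against shRPL3 changed to 0.00642 with both, and RRP36 in G27D against shRPL3 to 0.0211 with scaling. Leaving out each library gave 39 to 41 calls for shRPL3 and 7 to 12 for R161W against shScramble. Against shRPL3 it gave 17 to 33 for RPL3L-WT, 10 to 14 for P291L, 2 to 5 for G27D, 18 to 37 for T189M, 4 to 5 for D308N, 2 to 5 for D308V and 8 to 11 for R343W. Against RPL3L-WT it gave 0 to 27 for P291L, 0 to 12 for G27D, 4 to 19 for R161W, 0 to 1 for T189M and 16 to 34 for R343W. Depth behind TPM is unknown, so no limit from counting is given.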
